A study of Gallus gallus with 3 samples.

Results

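gga-miR-1623 and gga-miR-1669 are 2 of the 542 chicken microRNAs (miRNAs) on an array that compared leg muscle of dwarf and normal embryos, and both belong to the 127 miRNAs bright enough to be tested. They were chosen from the strain ratios of these same arrays, as probes lower in the dwarf pools, and because their target sequences share 9 bases in a row. Their ratios between the strains are therefore given as a description, with no test. The dwarf pools came from dwarf recessive White Rock chickens, whose growth hormone receptor gene (GHR) has a deletion that takes in the end of an exon and part of the 3′ UTR, and the normal pools came from recessive White Rock chickens of normal size. Both strains are meat-type birds, all embryos were female and 14 days old, and skin and bone had been removed from the muscle. Every array (n = 3) set 1 dwarf against 1 normal pool, each made from 3 embryos. Dwarf RNA was labelled with Cy5 on arrays 1 and 3, and with Cy3 on array 2. With 3 arrays, pools in place of single embryos, and separately bred strains, the number of arrays limits the precision, and an effect of the deletion cannot be told apart from other differences between the strains.

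miRNAs are short RNAs that guide Argonaute proteins to messenger RNAs, mostly through pairing of the seed, bases 2 to 8 of the miRNA, and they lower the stability or translation of those messengers. In skeletal muscle, miR-1, miR-133 and miR-206 are the classic muscle-enriched miRNAs, and they act in myoblast growth and differentiation. miR-1623 and miR-1669 carry high miRBase numbers given to miRNAs catalogued in chicken, and no role is stated for either here.

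The target sequences that the array was built to detect are shown first with the seed in capitals, because it largely sets which messengers a miRNA can pair with.
miR-1623: gCAGGCACagacaggcagua
miR-1669: gUGGGCUCagagcaggcaca
Both targets are 20 bases long. Their seeds differ, and each seed occurred in 1 sequence of the array, so neither miRNA had a seed relative there. The share of G and C was 60% in miR-1623 and 65% in miR-1669, against a median of 50% over all 542 sequences. At least 60% was reached by 108 of the sequences and at least 65% by 63.

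The stretch that both targets hold is shown in capitals in a second print, since it is what made miR-1669 the similar probe.
miR-1623: GCAGGCACAgacaggcagua
miR-1669: gugggcucagaGCAGGCACA
The stretch covers positions 1 to 9 of miR-1623, counted from its 5′ end, and positions 12 to 20 of miR-1669, its 3′ end. It makes up 45% of each target, 6 of its 9 bases are G or C, and 2 of the 542 sequences on the array held it. The whole seed of miR-1623 lies inside the stretch, so it also occurs in miR-1669, starting there at position 13 and outside the seed. The seed of miR-1669 does not occur in miR-1623. Within miR-1623 the 6 bases CAGGCA occur at positions 2 and 12.

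Other sequences on the array resembled one of the targets more closely than the targets resemble each other. miR-1623 and miR-1669 had 10 identical bases in their best alignment without gaps, where the median was 8 against the 541 other sequences. The highest number for miR-1623 was 16 of 18 aligned bases, with miR-214, and the identical bases are in capitals.
miR-1623: GCaGGcACAGACAGGCAGua
miR-214: acaGCgGGaACAGACAGGCAG
The highest number for miR-1669 was 14 of 20 aligned bases, with miR-1668*, and the identical bases are again in capitals.
miR-1669: GUGGGCUcaGAGCAggcaCA
miR-1668*: GUGGGCUggGAGCAcaggCAcu
In mouse, miR-214 is known for promoting the differentiation of muscle cells.

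The longest stretch shared without a mismatch was compared for all sequences, and 5 others, or 0.924%, held at least 8 bases of miR-1623. These were miR-214 with 12 bases, miR-1669 with 9, and miR-1664*, miR-1731 and miR-34b with 8. For miR-1669 there were 4, or 0.739%, namely miR-1623 with 9 bases and miR-1746, miR-1731 and miR-1738 with 8. Apart from the members themselves, none of these 6 sequences was bright enough to be tested. Of these 6, miR-214 was the brightest, with a mean signal of 24.0, and the other 5 had mean signals between -15.3 and -0.73, around the level of an empty spot. At a stretch of 6 bases or more, 8 miRNAs similar to miR-1669 were tested and 2 of them were lower in the dwarf pools on all 3 arrays, as 18.9% of all 127 tested miRNAs were. For miR-1623 the same counts were 3 tested and 3 lower. Both counts include the other member, which was chosen as lower in the dwarf pools. The median ratio, log2 of dwarf over normal, was -0.06 over the 8 and -0.17 over the 3, so a count of signs says little about size.

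The predicted binding of each sequence to the perfect complement of a target was computed with RNAduplex, taking the complement as a stand-in for the probe. The complement of miR-1623 bound its own target at -41.4 kcal/mol, miR-214 at -31.7 and miR-1669 at -25.2, which was the second strongest of the 541 others and 60.9% of the own value. The complement of miR-1669 bound its own target at -43.6 kcal/mol, miR-1668* at -34.0 and miR-1623 at -21.0, which ranked 14 of 541 and was 48.2% of the own value. The median of the others was -9.50 kcal/mol for miR-1623 and -10.0 for miR-1669. These energies describe the sequences. The part of hybridisation of one target to the other probe in the signals was not tested.

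In the RefSeq gene table of assembly GRCg7b, MIR1623 lies inside no other gene, with NEO1 and HCN4 as its neighbours. MIR1669 lies inside no other gene either and has SLC16A1 and LRIG2 as its neighbours. The pair is therefore not a cluster of adjacent genes.

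Each miRNA was printed in 6 spots per array, and a spot's signal is its intensity minus the median empty spot of the same channel, in scanner units. A signal over 32 counts as detected. In the dwarf pools miR-1623 had mean signals of 1281, 2448 and 2030 on arrays 1, 2 and 3, against 6450, 2390 and 10553 in the normal pools. On arrays 1 and 3 every dwarf spot was below every normal spot, with 1124 to 1504 against 5610 to 7509 on array 1 and 1856 to 2225 against 8995 to 11705 on array 3. On array 2 the spots overlapped, with 2224 to 2727 in the dwarf pool and 2223 to 2754 in the normal pool. miR-1623 was thus far above background in all 6 pools, and its unadjusted signal differed between the strains only on the arrays where the normal pool carried Cy3. The signal was 5.04-fold and 5.20-fold higher in the normal pool on arrays 1 and 3, and 0.976-fold on array 2. Among all 542 miRNAs it ranked 36, 37 and 39 by signal in the dwarf pools, and 16, 26 and 27 in the normal pools.

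The probe of miR-1669 was much dimmer. Its mean signals were 69.5, 37.5 and 51.3 in dwarf pools 1, 2 and 3, against 899, 24.3 and 869 in the normal pools. The normal pool of array 2 was under the detection level of 32, and the other 5 pools were over it. On array 1 the spots read 48.2 to 80.9 in the dwarf pool and 742 to 1041 in the normal pool. On array 3 they read 34.9 to 65.1 in the dwarf pool and 634 to 1106 in the normal pool. On array 2 they read 31.2 to 49.1 in the dwarf pool and 14.7 to 31.5 in the normal pool, so the dwarf pool was the brighter one there. In every pool the lowest spot of miR-1669 was above at least 99.8% of the empty spots. The normal pool was 12.9-fold and 16.9-fold brighter than the dwarf pool on arrays 1 and 3, and 0.647-fold as bright on array 2.

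**Figure D1:**
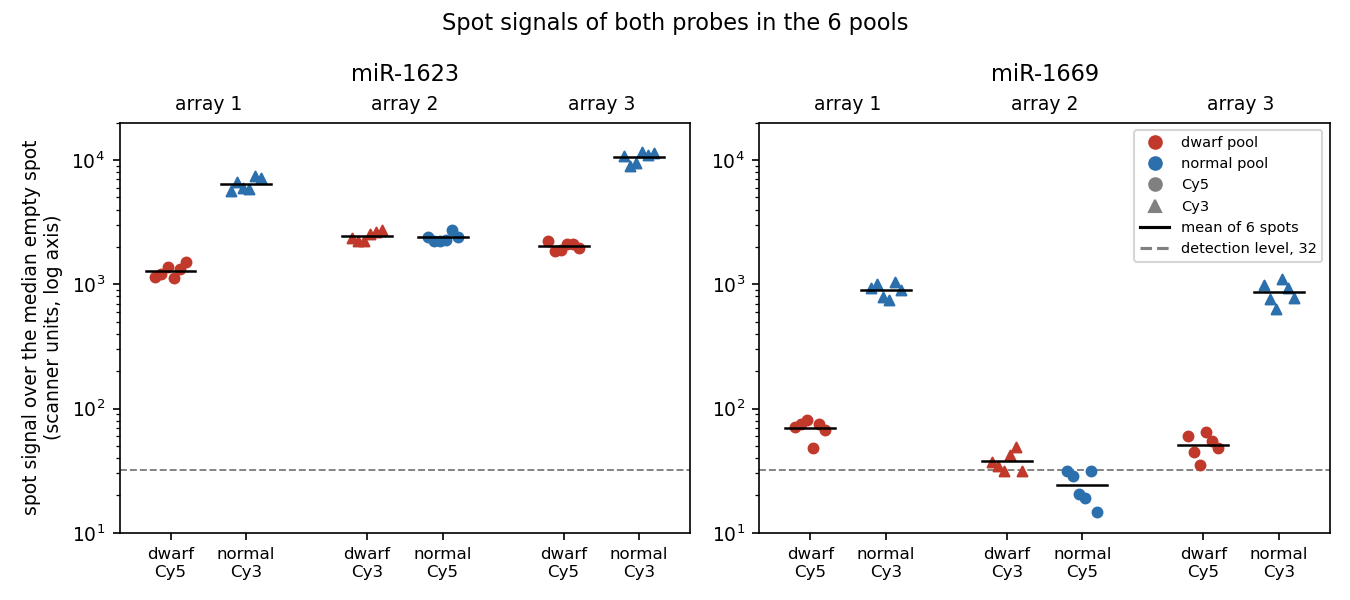
Signals of the 6 spots of miR-1623 (left panel) and miR-1669 (right panel) in each pool, as points on a log axis in scanner units, with the mean of the 6 spots as a black line and the detection level of 32 as a dashed line. Dwarf spots lie far below normal spots on arrays 1 and 3 for both probes. On array 2, where the dyes were swapped, the miR-1623 spots of both pools overlap, and the miR-1669 signal is low in both pools, at 37.5 in the dwarf pool and 24.3 in the normal pool.

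The dye moved with these signals. miR-1623 averaged 6484 ± 4053 in Cy3 and 1900 ± 566 in Cy5 (SD, n = 3 each), and miR-1669 averaged 602 ± 489 in Cy3 and 48.4 ± 22.7 in Cy5. The same was seen over all tested miRNAs, whose median signal was 301, 599 and 642 in dwarf pools, against 938, 182 and 2600 in normal pools of the 3 arrays, so that the Cy3 pool was the brighter one each time. Spots within a pool differed much less than pools did. The coefficient of variation over the 6 spots of miR-1623 was 11.7%, 8.54% and 7.25% in the dwarf pools and 12.2%, 8.35% and 10.3% in the normal pools. For miR-1669 it was 16.4%, 18.5% and 21.5% in the dwarf pools and 13.0%, 29.2% and 19.9% in the normal pools.

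Because both channels of an array share a trend of ratio with brightness, ratios were read after loess, which subtracts that trend within each array. Ratios are given as log2 of dwarf over normal. Before loess the ratio of miR-1623 was -2.28, 0.04 and -2.34 on arrays 1, 2 and 3, and the trend at its brightness was -0.94, 0.98 and -1.29. After loess the ratio was -1.33, -0.94 and -1.05. All 6 spots were below 0 on each array, within -1.50 to -1.12 on array 1, -1.03 to -0.79 on array 2 and -1.22 to -0.93 on array 3. The mean was -1.11 with an SD of 0.20 and an SE of 0.12 (n = 3), which equals a level 2.15-fold higher in the normal pools. On array 2 the channels read nearly the same before loess, so its ratio there came almost wholly from the trend.

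For miR-1669 the ratio before loess was -2.84, 0.40 and -3.06, and the trend at its brightness was -1.08, 0.81 and -1.58. After loess the ratio was -1.76, -0.41 and -1.48 on arrays 1, 2 and 3. Again all 6 spots were below 0 on each array, within -1.90 to -1.48, -0.58 to -0.24 and -1.61 to -1.36. The mean was -1.22 with an SD of 0.71 and an SE of 0.41 (n = 3), or 2.32-fold higher in the normal pools. After loess the arrays thus gave one sign but not one size. The mean of arrays 1 and 3, which share the dye orientation, was -1.62. With both dye orientations weighted equally, an alternative chosen after the values were seen, the mean was -1.01 for miR-1669 and -1.06 for miR-1623. An offset of 50 is added in the background step, so ratios of dim spots are pulled toward 0 before loess. On array 2 the miR-1669 ratio before loess was 0.40, higher in the dwarf pool, with 0 of 6 spots below 0. Its negative sign there after loess came from subtracting the trend of 0.81.

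**Figure D2:**
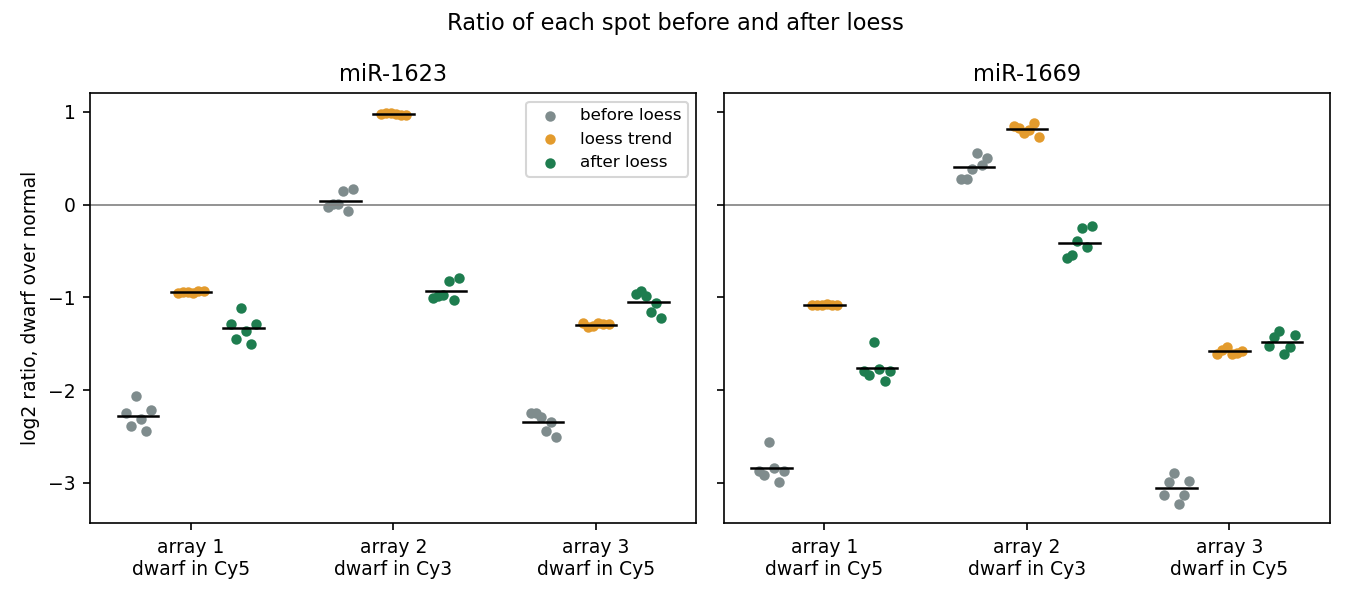
Log2 ratio of dwarf over normal for each of the 6 spots of miR-1623 (left panel) and miR-1669 (right panel) on each array, before loess (grey), as fitted by the loess trend (orange) and after loess (green), with means as black lines. After loess every spot of both probes is below 0, and the means on arrays 1, 2 and 3 are -1.33, -0.94 and -1.05 for miR-1623 and -1.76, -0.41 and -1.48 for miR-1669.

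The spread between arrays differed between the probes. The SD of 0.20 of miR-1623 was above that of 30.7% of the 127 tested miRNAs, and the SD of 0.71 of miR-1669 was above that of 84.3%. The median SD was 0.33. Between the 6 spots of one array, the SD of the ratio was 0.14, 0.10 and 0.12 for miR-1623 and 0.15, 0.15 and 0.10 for miR-1669, close to the medians of 0.14, 0.11 and 0.16 over the tested miRNAs. The authors' own table of log2 ratios, made by background subtraction and LOWESS, gave -1.18, -1.08 and -1.10 for miR-1623 (mean -1.12, SD 0.05) and -2.28, -1.28 and -1.73 for miR-1669 (mean -1.76, SD 0.51).

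Normalised signals of the single channels, which contain the offset, show how far the pools overlapped. miR-1623 had 2457, 2212 and 1973 in the dwarf pools, against 6190, 4230 and 4091 in the normal pools. All dwarf pools were below all normal pools, and the means were 2214 ± 242 in dwarf and 4837 ± 1174 in normal pools (SD, n = 3 each). miR-1669 had 196, 120 and 119 in the dwarf pools, against 664, 160 and 330 in the normal pools. Here the groups overlapped, since the dwarf pool of array 1 was above the normal pool of array 2, and the means were 145 ± 44.1 in dwarf and 384 ± 256 in normal pools. Of the 127 tested miRNAs, 6, or 4.72%, had all dwarf pools below all normal pools, and miR-1623 was one of them.

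Over all tested miRNAs the median ratio was -0.05. The ratio was below 0 on all 3 arrays for 24 miRNAs, or 18.9%, among them both members, a count the choice of members fixed. A mean ratio below -1 was seen for 4 miRNAs, or 3.15%. These were miR-1669 at -1.22, miR-140* at -1.13, miR-1759 at -1.13 and miR-1623 at -1.11, and the next was miR-455-3p at -0.91. Of the 4, miR-140* was the exception in direction, with -3.48, 2.13 and -2.05 on arrays 1, 2 and 3. After loess its sign followed the dye of the dwarf pool, whereas miR-1623, miR-1669 and miR-1759 kept one sign. Before loess the ratios of miR-1623 and miR-1669 were also above 0 only on array 2, at 0.04 and 0.40. limma over the 127 ratios called 0 miRNAs at an adjusted p of 0.05, or 0%, and 14 had an unadjusted p under 0.05, of which 7 were lower and 7 higher in the dwarf pools.

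**Figure D3:**
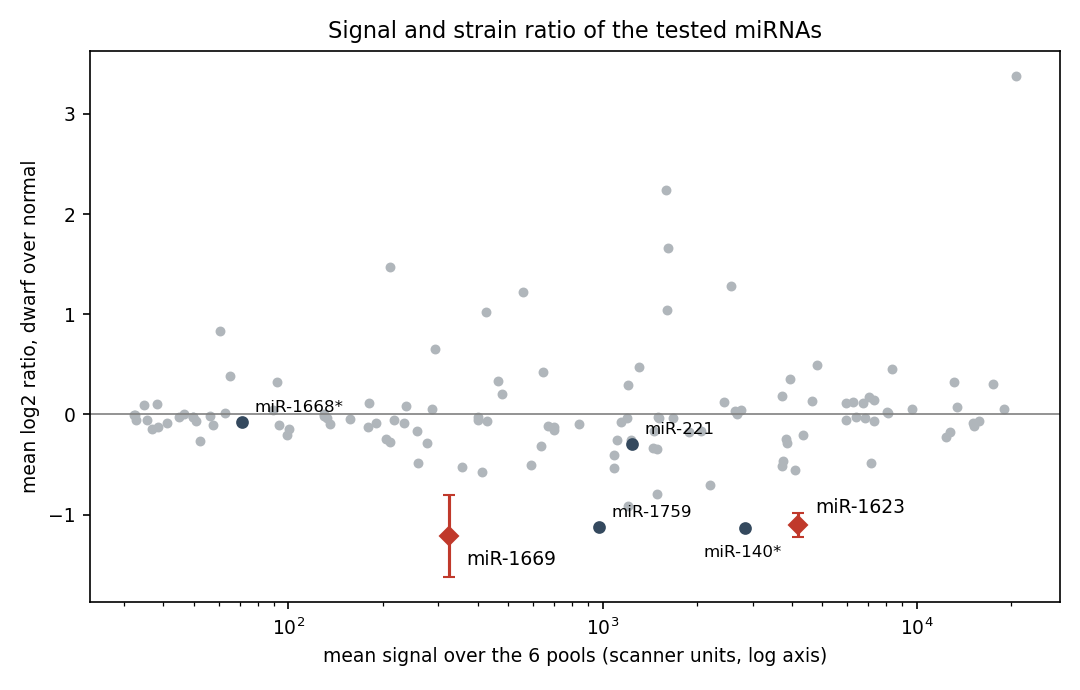
Mean signal over the 6 pools (log axis, scanner units) against the mean log2 ratio of dwarf over normal for the 127 tested miRNAs, each point 1 miRNA, with miR-1623 and miR-1669 as diamonds with their SE (n = 3) and other named miRNAs as dark points. Both sit at the lower edge at different brightness, with mean signals of 4192 for miR-1623 and 325 for miR-1669, while miR-1668*, the closest sequence to miR-1669, lies near 0 at -0.08.

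The closest sequence of each member was read in the same way. miR-1668*, which shares its first 7 bases with miR-1669, had signals of 33.9, 39.4 and 44.6 in the dwarf pools and 122, 10.4 and 177 in the normal pools. Its ratio was -0.19, -0.04 and -0.002, and the mean was -0.08. miR-214 was under the detection level in all dwarf pools, with 10.3, 13.0 and 8.33, and read 53.1, 3.21 and 56.0 in the normal pools. Its ratio was -0.15, -0.05 and -0.17, with a mean of -0.12. Both were dim, so the offset leaves little room for a ratio, and only miR-1668* was among the tested miRNAs.

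The signal of miR-1623 relative to that of miR-1669 was then followed through the pools. Levels of different probes are not on one scale, so the ratio is compared between pools and not read as an abundance. miR-1623 was 18.4, 65.2 and 39.5 times as bright as miR-1669 in the dwarf pools of arrays 1, 2 and 3. In the normal pools it was 7.17 times as bright on array 1 and 12.1 times on array 3, and at least 74.7 times on array 2, where miR-1669 was under the detection level and was set to 32. Put as a share, the miR-1669 signal was 5.43%, 1.53% and 2.53% of the miR-1623 signal in the dwarf pools, against 13.9% and 8.24% in the normal pools of arrays 1 and 3 and at most 1.34% in that of array 2. The share was higher in the normal pool on arrays 1 and 3 and higher in the dwarf pool on array 2, in each case in the pool that carried Cy3. Within the Cy3 channel it was 1.53% in the dwarf pool of array 2, against 13.9% and 8.24% in the normal pools of arrays 1 and 3. Within the Cy5 channel it was 5.43% on array 1 and 2.53% on array 3, both dwarf pools, against at most 1.34% in the normal pool of array 2.

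After normalisation the log2 ratio of miR-1623 over miR-1669 was 3.65, 4.20 and 4.06 in the dwarf pools, against 3.22, 4.73 and 3.63 in the normal pools. The means were 3.97 ± 0.29 in dwarf and 3.86 ± 0.78 in normal pools (SD, n = 3 each), and the groups overlapped. Within arrays, dwarf minus normal was 0.43, -0.53 and 0.42, with a mean of 0.11, an SD of 0.55 and an SE of 0.32. The sign was positive on 2 arrays and negative on 1. In the authors' table of log2 ratios the same difference was 1.11, 0.20 and 0.63, positive on all 3 arrays, with a mean of 0.65 and an SD of 0.45. The mean was thus positive in both sets of values, and the sign on array 2 depended on which were read. For the ratios normalised here, the mean without array 1 was -0.05, as it also was without array 3.

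**Figure D4:**
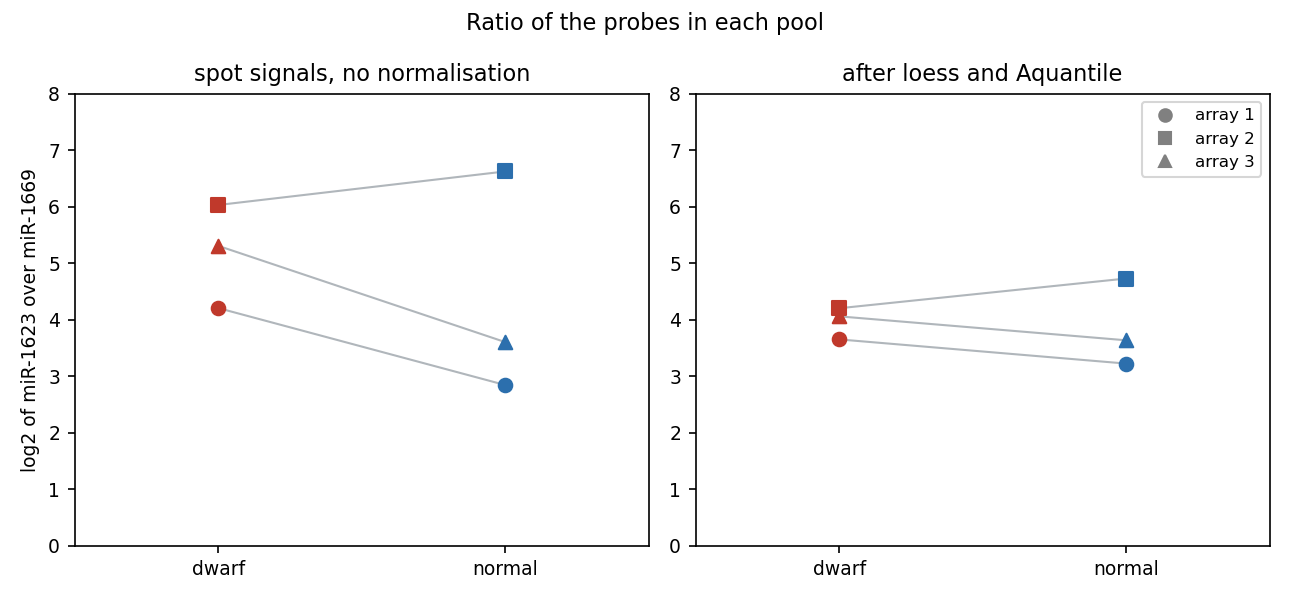
Log2 of the miR-1623 signal over the miR-1669 signal in each pool, for spot signals over the empty spots (left panel) and for normalised signals (right panel), with a line joining the dwarf and normal pool of each array. The miR-1669 signal in the normal pool of array 2 is under the detection level of 32, and its measured value is plotted. The lines fall toward the normal pool on arrays 1 and 3 and rise on array 2, and the normalised values overlap between dwarf (3.65 to 4.20) and normal (3.22 to 4.73) pools.

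Among the tested miRNAs, those with the pattern most like each member over the 6 normalised pools were looked up by Pearson's r. The points share the strain difference that chose the members, and pools of one array share a hybridisation, so r is only a description. miR-221, a miRNA that represses the cell-cycle inhibitor p27 and is lowered when myoblasts differentiate in quail and mouse, was the most like miR-1623, with r = 0.974 over 6 pools. Its ratio was -0.33, -0.30 and -0.26 on the 3 arrays, a much smaller but very even difference. miR-1759 followed with r = 0.884 and ratios of -1.44, -1.53 and -0.42. miR-2954, an avian miRNA known for its higher level in males than in females, came next with r = 0.865 and ratios of -0.81, -0.34 and -0.26. miR-1669 ranked 4 of 126 for miR-1623, with r = 0.858, and the median over the 126 was -0.05. For miR-1669, miR-1623 ranked first at r = 0.858, followed by miR-2127 at r = 0.858 with ratios of -0.55, -0.49 and -0.16, and by miR-2954 at r = 0.836, against a median of -0.12. The similar probe was therefore among the closest in pattern. miR-221, miR-1759 and miR-2954, with no shared stretch of at least 8 bases, were closer to miR-1623. For miR-1669 none was closer than miR-1623, and miR-2127, also without such a stretch, was nearly as close.

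Both members belong to a block of high-numbered miRBase entries, most of which were dim in this muscle. Of 321 such miRNAs on the array 28 were tested, and 6 of these, the members included, were lower in the dwarf pools on all 3 arrays, beside 24 of all 127 tested miRNAs (18.9%). By signal miR-1623 ranked 4 and miR-1669 ranked 13 among the 321. Their ratios were the third lowest and the lowest of the 28, whose median was -0.03 and whose range was -1.22 to 0.46. The members were chosen as lower in the dwarf pools, so these ranks are only a description.

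Markers of some other cells moved with the strain on these arrays. The marker lists were written with earlier results of these data known, so the counts from them are a description. The muscle miRNAs miR-1a and miR-206 were bright in every pool. Before normalisation miR-1a read 5840 to 19498 in dwarf and 9304 to 25983 in normal pools. For miR-206 these signals were 6803 to 19790 in dwarf and 12852 to 20864 in normal pools. Such signals still hold the dye difference, and after loess the mean ratios were -0.08 for miR-1a and -0.06 for miR-206. Of 6 tested muscle miRNAs 0 were lower and 0 higher in the dwarf pools on all 3 arrays, with a median ratio of -0.18 and summed normalised signals of 24084 to 51394 in dwarf and 33010 to 45334 in normal pools. Of 6 tested epithelial miRNAs, those of the miR-200 family, miR-203 and miR-205, 5 were higher in the dwarf pools on all 3 arrays, where 13.4% of all tested miRNAs were, and their sums were 29054 to 70991 in dwarf and 1237 to 12576 in normal pools. The red blood cell miRNA miR-451 was higher in dwarf pools, with normalised signals of 2056 to 5218 against 1100 to 1521 in normal pools. The other listed red blood cell miRNA, miR-144, was not above the detection level in any pool. Of 3 tested white blood cell miRNAs 1, miR-146a, was higher on all 3 arrays, the median ratio was 0.04, and their sums overlapped at 767 to 1774 in dwarf and 499 to 806 in normal pools. The cartilage miRNA miR-140 was under the detection level in every pool. The miR-140* entry was above that level in every pool. Its signals before normalisation were 119 to 1977 in dwarf and 157 to 9651 in normal pools. miR-455-3p, also known from cartilage and named, like miR-140*, after its values were seen, had ratios of -1.25, -0.24 and -1.24. The other miR-455 entry, miR-455-5p, had ratios of -0.84, 0.21 and -1.09, so its sign changed on array 2, where the dyes were swapped. It too was named after its values were seen. The part of a different cell make-up in the lower ratios of miR-1623 and miR-1669 was not tested, and in pooled tissue fewer cells of a type cannot be told apart from less RNA per cell.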

How the data were processed

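The authors hybridised each two-colour array (LC Sciences, designed on miRBase) with 1 dwarf and 1 normal pool, and deposited the mean intensity of each spot per channel, with other scanner columns and no background column. They also deposited log2 ratios per miRNA, made by background subtraction and LOWESS and following dwarf over normal when set against the channels. Intensities were read after commas had been removed from the numbers. In limma 3.58.1 (R 4.3.3) they were corrected with normexp (offset 50) on foreground only, normalised by loess (span 0.3, weight 0 for controls), averaged over 6 spots, and turned to dwarf over normal on array 2. This departs from the planned correction with a background column. miRNAs with a mean signal over 32 in the 6 channels were tested with lmFit and eBayes (Benjamini-Hochberg). Single channels were taken after Aquantile. Only the limma step was tested on simulated ratios, and the chain from spots to loess ratios on changes planted in the real spots. Duplex energies came from ViennaRNA 2.7.2. The members and lists were chosen with earlier results of these data known. Named miRNAs were the members, the 3 most like each by Pearson's r, and those sharing at least 8 bases. Also named were the closest sequence to each member by alignment without gaps, miRNAs of the marker lists, and others said to be named after their values were seen.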

Additional observations from a re-analysis of the deposited data

How the results depend on the processing

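The mean ratio of miR-1623 stayed below 0 in all 11 alternatives, between -1.53 and -0.99. With no normalization it moved to -1.53, where the median of all tested miRNAs was -0.50 in place of -0.05, and relative to that median it was -1.02 in place of -1.05. The mean ratio of miR-1669 stayed below 0 in all 11, between -1.83 and -0.94, and was -1.62 without array 2. A mean below 0 did not always stand for one sign on each array. With no normalization array 2 was at 0.04 for miR-1623 and 0.40 for miR-1669, and the SD over arrays was 1.36 and 1.94. For miR-1669 the SD was also 1.33 with median centring and 1.31 with plain subtraction. Leaving out 1 array at a time gave -1.19 to -0.99 for miR-1623 and -1.62 to -0.94 for miR-1669. The difference in the ratio of miR-1623 over miR-1669, dwarf minus normal, 0.11, was 0.65 in the authors' table, 0.33 with an offset of 16, 0.32 with plain subtraction and 0.31 with median centring or no normalization. It had a range of -0.051 to 0.43 with 1 array left out, and was -0.050 with both dye orientations weighted equally. The cause was not tested. The count of miRNAs lower on all arrays, 24, was 13 with median centring, 5 with no normalization and 67 with no filter, where 542 miRNAs were counted, and 34 to 50 with 1 array left out, where 2 signs are asked for in place of 3. limma's 0 calls became 2 with median centring, 3 with a dye coefficient, and 1 with separate channels and the array as a replicate block (correlation 0.606). The methods name a t-test without saying whether it was paired. The form chosen here set 3 dwarf against 3 normal channels and ignored that channels of one array are paired, so it need not be the test the authors ran. It called 1 miRNA at the threshold the methods give, and none after Benjamini-Hochberg adjustment. In 14 of the 18 alternatives 0 were called, this adjusted test among them. In both fits with 1 call it was miR-1623, whose choice rests on this contrast, so neither call is a test of it. The signal of miR-1669 on array 2, close to 32, limits its ratio there.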
